A study of Mus musculus with 36 samples.

Results

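The 10 genes described here, *Nodal*, *Gdf3*, *Pcsk6*, *Tdgf1*, *Acvr2b*, *Foxh1*, *Lefty1*, *Lefty2*, *Smad7* and *Skil*, encode parts of the Nodal signalling pathway. They were chosen by name and not by any measured value, and all 10 are listed in every bulk RNA-seq file, among 50600 genes in the files of the sorted Day 3 cells and among 29267 in the others. The study followed mouse epiblast stem cells (EpiSCs), which are cultured cells of the primed pluripotent state, through the primed to naïve transition that BMP4 induces (BiPNT). Levels are given as TPM, a share of all transcripts that is scaled for transcript length and library depth, in 11 libraries of 6 groups in 3 experiments.

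The 3 EpiSC libraries came from cells kept in N2B27 medium with Activin A at 20 ng/ml, bFGF and XAV939, so an activator of the pathway was present in that medium. The 2 Day 6 BV+SC+ libraries came from EpiSCs that carried the BVSC reporters of *Prdm1* (Blimp1-Venus) and *Dppa3* (Stella-CFP). By the protocol text, which is the same for both libraries, these cells spent 3 days in iCD1 medium with BMP4, the DOT1L inhibitor EPZ5676 at 2.5 µM and the EZH2 inhibitor EPZ6438 at 1 µM, then 3 days in N2B27 with 2i and vitamin C, and were sorted for both reporters, so *Prdm1* and *Dppa3* chose the cells. The deposited names of the BV+SC+ libraries, however, carry 2iJi for replicate 1 and GK15 for replicate 2. The study names GK15 as another medium tried in the second stage, and also a JAK inhibitor added there, while the labels do not spell out 2iJi. These libraries may thus come from cells in different second-stage media, and medium and replicate cannot be told apart. The 2 c-Kit+ and 2 c-Kit- libraries came from Day 3 cells of BiPNT in Stage 1 medium, separated by the surface receptor c-Kit. The last 2 libraries are Day 3 cells with and without SGC0946, a DOT1L inhibitor (DOT1Li), with 1 library each. Stage 1 medium holds EPZ5676 or SGC0946 in the study, which describes this pair as with and without DOT1Li, but the labels do not say whether EPZ5676 was left out of both. No protein or signalling activity was measured, and in bulk RNA fewer cells that express a gene and less of its RNA in each cell cannot be told apart.

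Nodal is a ligand of the TGF-β family. It binds type I and type II Activin receptors, of which Acvr2b is a type II receptor, together with the co-receptor Cripto, the product of *Tdgf1*. Gdf3 is a related ligand, and the convertase Pcsk6 (Pace4) cleaves the Nodal precursor. The receptors phosphorylate Smad2 and Smad3, which with Smad4 and the DNA-binding partner Foxh1 act on target genes that include *Nodal*, *Lefty1* and *Lefty2* themselves. The Lefty proteins block the ligand outside the cell, while Smad7 acts on the receptors and Skil (SnoN) on the Smad complexes inside it. In the mouse embryo the pathway maintains the epiblast and patterns the primitive streak, and cultured EpiSCs depend on it.

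*Lefty1* and *Lefty2* are neighbours on chromosome 1 of GRCm38, where *Lefty2* lies at chr1:180893108-180899103 and *Lefty1* at chr1:180935022-180938400, both on the plus strand and 35918 bases apart. *Nodal* lies at chr10:61417972-61425338 on the plus strand and *Tdgf1* at chr9:110939603-110946158 on the minus strand. All 10 are annotated as protein-coding genes. *Pcsk6* overlaps *Gm20684* on the other strand and *Gm45213* on its own, and *Acvr2b* overlaps the antisense gene *Gm47320*. These are overlaps of whole gene spans, and overlap of exons was not examined. At most 4.18% of a *Pcsk6* transcript has at least 98% identity with *Gm45213*. The strand setting of the counting is not given in the sources used here. Where exons overlap on the other strand, reads may thus not have been told apart. Up to 39.7% of a *Tdgf1* transcript has at least 98% identity with the processed pseudogene *Tdgf1-ps1*. No stretch of at least 75 bases at that identity is shared between *Lefty1* and *Lefty2*. Their expected counts were nevertheless fractional in BV+SC+ replicate 1, at 2265.54 and 4685.46, so RSEM may have divided some reads between them.

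The 250 bases before the start of *Nodal* and of *Tdgf1* are shown, since these genes encode the ligand that names the pathway and its co-receptor and since RefSeq and GENCODE place their starts at the same base. They come from RefSeq on GRCm38.p6, at chr10:61417722-61417971 on the plus strand and at chr9:110946159-110946408 on the minus strand. Windows were given for 4 of the 10 genes, the others being *Pcsk6* and *Acvr2b*. Capitals mark matches on either strand to the FOXH1 forms AATCCACA and AATACACA, the SMAD element CAGAC, the octamer ATGCAAAT, the GC box GGGCGG and the TATA box TATAAA.
Nodal: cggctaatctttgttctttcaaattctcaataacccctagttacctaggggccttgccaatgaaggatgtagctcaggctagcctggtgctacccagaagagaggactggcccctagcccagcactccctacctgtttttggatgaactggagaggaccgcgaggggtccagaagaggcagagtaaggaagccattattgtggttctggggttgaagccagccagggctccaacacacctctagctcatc
Tdgf1: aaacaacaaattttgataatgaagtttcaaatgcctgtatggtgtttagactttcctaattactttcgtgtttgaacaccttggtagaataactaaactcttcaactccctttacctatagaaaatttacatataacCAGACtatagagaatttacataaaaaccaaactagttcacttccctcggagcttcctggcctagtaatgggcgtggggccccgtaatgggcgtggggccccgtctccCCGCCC
None of these 6 motifs occurs in the *Nodal* window. The *Tdgf1* window holds 1 CAGAC on its own strand, 113 to 109 bases before the start, and 1 GC box on the other strand, in the last 6 bases before the start. CAGAC occurs in 42.2% and the GC box in 33.0% of 32536 windows of this length, so both are common letters. The FOXH1 forms occur in 0.713% and 0.897% of these windows, the octamer in 1.62% and the TATA box in 12.3%.

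The libraries of sorted Day 3 cells held 1726038 to 1841442 expected counts each, those of EpiSCs 2444211 to 3070115, those of BV+SC+ cells 14778809 to 18099059, and the libraries with and without SGC0946 4776143 and 4577685. The summed TPM of the pluripotency genes *Pou5f1*, *Sox2* and *Nanog* was 1567 and 1631 in c-Kit+ cells but 74.4 and 64.3 in c-Kit- cells, while EpiSCs had 2335 to 2348 and BV+SC+ cells 2165 and 2252. Most of this sum was *Pou5f1*, at a mean of 2065 TPM in EpiSCs and 1481 TPM in BV+SC+ cells. *Sox2* (133.6 in EpiSCs and 407.2 TPM in BV+SC+ cells) and *Nanog* (145.5 and 320 TPM) were called higher in BV+SC+ cells. Of the germ cell genes that did not choose the cells, *Tfap2c* was at 168 and 213, *Prdm14* at 40.3 and 40.9 and *Nanos3* at 43.4 and 21.5 TPM in BV+SC+ cells, and all 3 were at most at 0.86 TPM in EpiSCs.

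**Figure D1:**
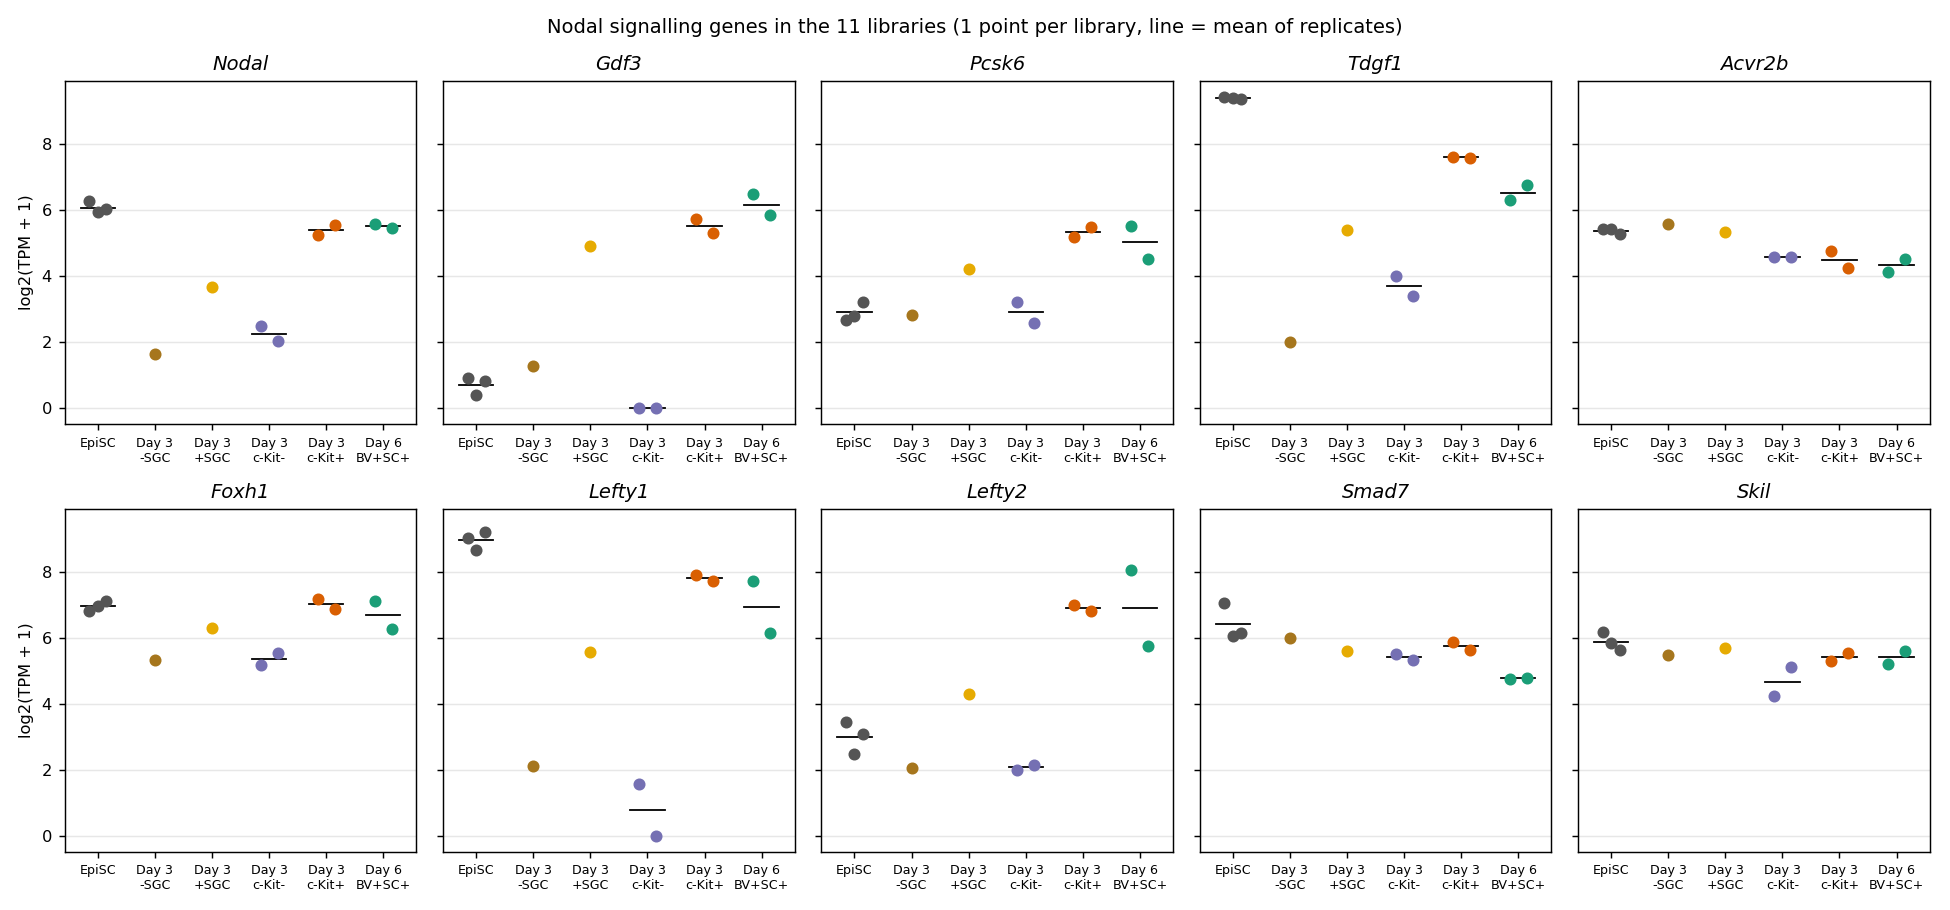
TPM of the 10 genes on a log2(TPM + 1) scale (vertical axis), 1 point per library and a line at the mean of replicates, in EpiSCs, in Day 3 cells without and with SGC0946, in Day 3 c-Kit- and c-Kit+ cells and in Day 6 BV+SC+ cells (horizontal axis). *Nodal*, *Gdf3*, *Tdgf1*, *Lefty1* and *Lefty2* sit low in c-Kit- cells and in the library without SGC0946, and in EpiSCs *Lefty1* sits near the top of the scale with *Lefty2* far below it.

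The comparison of the sorted Day 3 populations asks how the pathway genes differ between the c-Kit+ and the c-Kit- cells that BMP4 treatment gives. The ligands, the convertase, the co-receptor, *Foxh1* and both *Lefty* genes were higher in c-Kit+ than in c-Kit- cells, while *Acvr2b*, *Smad7* and *Skil* differed by less than 2-fold. These are differences between sorted cells of the same day, not changes over time. In numbers, 7 of the 10 genes were called higher and 0 lower, at an adjusted p under 0.05 with a fold change over 2 in edgeR's quasi-likelihood test. Of all 11018 genes tested, 9.98% were called higher and 12.9% lower. The median log2 fold change of the 10 genes was 3.13, beside 0.03 over all genes tested. By the unadjusted p under 0.05, the number called lower was also 0, as it was with DESeq2. At any fold, 9 of the 10 passed the adjusted p as higher, beside 20.2% of all genes higher and 21.3% lower.

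Among the ligands, *Nodal* was at 37.0 and 46.1 TPM in the c-Kit+ libraries and at 4.60 and 3.11 TPM in the c-Kit- libraries. The c-Kit- values rested on 9 and 6 expected counts. Both c-Kit+ libraries lay above both c-Kit- libraries, with a log2 fold change of 3.55 ± 0.33 (SE, n = 2 per group, edgeR adjusted p = 4.28e-05), or 11.7-fold. *Gdf3* was at 51.9 and 38.9 TPM in c-Kit+ cells, with 104 and 79 expected counts, and had no count in either c-Kit- library. Its level in c-Kit+ cells was at least 32-fold higher, taking 3 counts per c-Kit- library as the limit that a count of 0 allows (edgeR adjusted p = 2.72e-05).

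*Pcsk6*, the convertase, was at 35.3 and 44.5 TPM in c-Kit+ cells and at 8.39 and 4.99 TPM in c-Kit- cells. The groups did not overlap, and the log2 fold change was 2.72 ± 0.27 (SE, n = 2 per group, edgeR adjusted p = 6.60e-05). *Furin*, another convertase of the TGF-β ligands, went the other way: it was at 39.6 and 31.7 TPM in c-Kit+ cells and at 117 and 108 TPM in c-Kit- cells (log2 fold change -1.50 ± 0.13, SE, n = 2 per group, edgeR adjusted p = 2.96e-05). The convertase genes of the pathway thus did not move together.

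*Tdgf1*, the co-receptor gene, was at 197 and 191 TPM in c-Kit+ cells and at 15.0 and 9.51 TPM in c-Kit- cells. It was higher in c-Kit+ cells by a log2 fold change of 4.18 ± 0.23 (SE, n = 2 per group, edgeR adjusted p = 2.22e-06), or 18.1-fold. Its pseudogene *Tdgf1-ps1*, to which RSEM can assign a share of the same reads, had 5.28 and 10.9 expected counts in c-Kit+ cells and none in c-Kit- cells. *Acvr2b*, the type II receptor gene, was at 26.4 and 17.9 TPM in c-Kit+ cells and at 22.8 and 23.2 TPM in c-Kit- cells. These ranges overlapped, and the difference was smaller than its error (log2 fold change 0.10 ± 0.28, SE, n = 2 per group, edgeR adjusted p = 0.806). Its sign turned when the first c-Kit+ library (log2 fold change -0.34) or the second c-Kit- library (-0.02) was left out.

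*Foxh1*, the nuclear partner of the Smads, was at 143 and 118 TPM in c-Kit+ cells and at 35.3 and 46.0 TPM in c-Kit- cells. It was higher in c-Kit+ cells by 1.82 ± 0.21 on the log2 scale (SE, n = 2 per group, edgeR adjusted p = 0.000141), or 3.53-fold. Unlike *Gdf3* and *Lefty1*, *Foxh1* was thus well detected in both c-Kit- libraries.

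The extracellular inhibitors showed the largest measured folds. *Lefty1* was at 240 and 213 TPM in c-Kit+ cells and at 2.01 and 0 TPM in c-Kit- cells, where the first library had 3 counts and the second none. The ratio of the pooled counts was 238, with a 95% counting interval from 81.1 to 1157 that covers counting error only (edgeR adjusted p = 1.11e-06). The fitted log2 fold change was 7.78 and became 6.82 without the second c-Kit- library, and without the first no count was left on that side. *Lefty2* was at 128 and 113 TPM in c-Kit+ cells and at 3.01 and 3.49 TPM in c-Kit- cells, from 7 and 8 expected counts. It was higher in c-Kit+ cells by 5.32 ± 0.22 on the log2 scale (SE, n = 2 per group, edgeR adjusted p = 6.79e-07), or 40.0-fold.

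The intracellular inhibitors differed little. *Smad7* was at 57.3 and 49.2 TPM in c-Kit+ cells and at 44.3 and 39.0 TPM in c-Kit- cells (log2 fold change 0.52 ± 0.15, SE, n = 2 per group, edgeR adjusted p = 0.0182). *Skil* was at 38.5 and 45.9 TPM in c-Kit+ cells and at 18.0 and 33.6 TPM in c-Kit- cells (log2 fold change 0.84 ± 0.20, SE, n = 2 per group, edgeR adjusted p = 0.00945). For both genes the groups did not overlap, which also held in this direction for 28.5% of all genes tested, and both stayed under the 2-fold threshold. Without the second c-Kit- library the log2 fold change of *Skil* was 1.20 and passed it, so that 8 genes were called.

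Marker genes of cell types differed between the sorted groups as well. The summed TPM of 7 trophoblast genes was 4859 and 4332 in c-Kit- cells against 903 and 663 in c-Kit+ cells, with all 7 detected in each library. Most of it came from *Krt8* and *Krt18*, while *Gata3* was not called and *Elf5* was not tested. The summed TPM of 5 fibroblast genes was 165 and 139 in c-Kit- cells against 55.5 and 43.6 in c-Kit+ cells, and that of 5 primitive endoderm genes was 21.4 and 31.0 in c-Kit- cells against 9.54 and 5.43 in c-Kit+ cells. In c-Kit- cells most of the last sum came from *Sox17*, which was at 16.3 and 26.8 TPM there and at 5.56 and 0.66 TPM in c-Kit+ cells, while *Gata6* of the same list was at 0 and 0.67 TPM in c-Kit- cells and at 2.62 and 4.26 TPM in c-Kit+ cells. The sum of 5 germ cell genes was 391 and 324 in c-Kit+ cells against 184 and 171 in c-Kit- cells, with *Tfap2c* not called. For 4 primed epiblast genes the sum was 65.3 and 64.1 in c-Kit+ cells against 77.8 and 84.4 in c-Kit- cells. Of these, *Otx2* was called higher and *Pou3f1* lower in c-Kit+ cells. *Sox2* had 0 and 3 counts and *Nanog* 1 and 0 counts in the c-Kit- libraries. The part of cell composition in the differences of the Nodal genes was not tested. When each library had to hold 10 counts of a gene, *Gdf3*, *Lefty1*, *Lefty2* and *Nodal* were not tested and 3 of 6 genes were called higher.

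**Figure D2:**
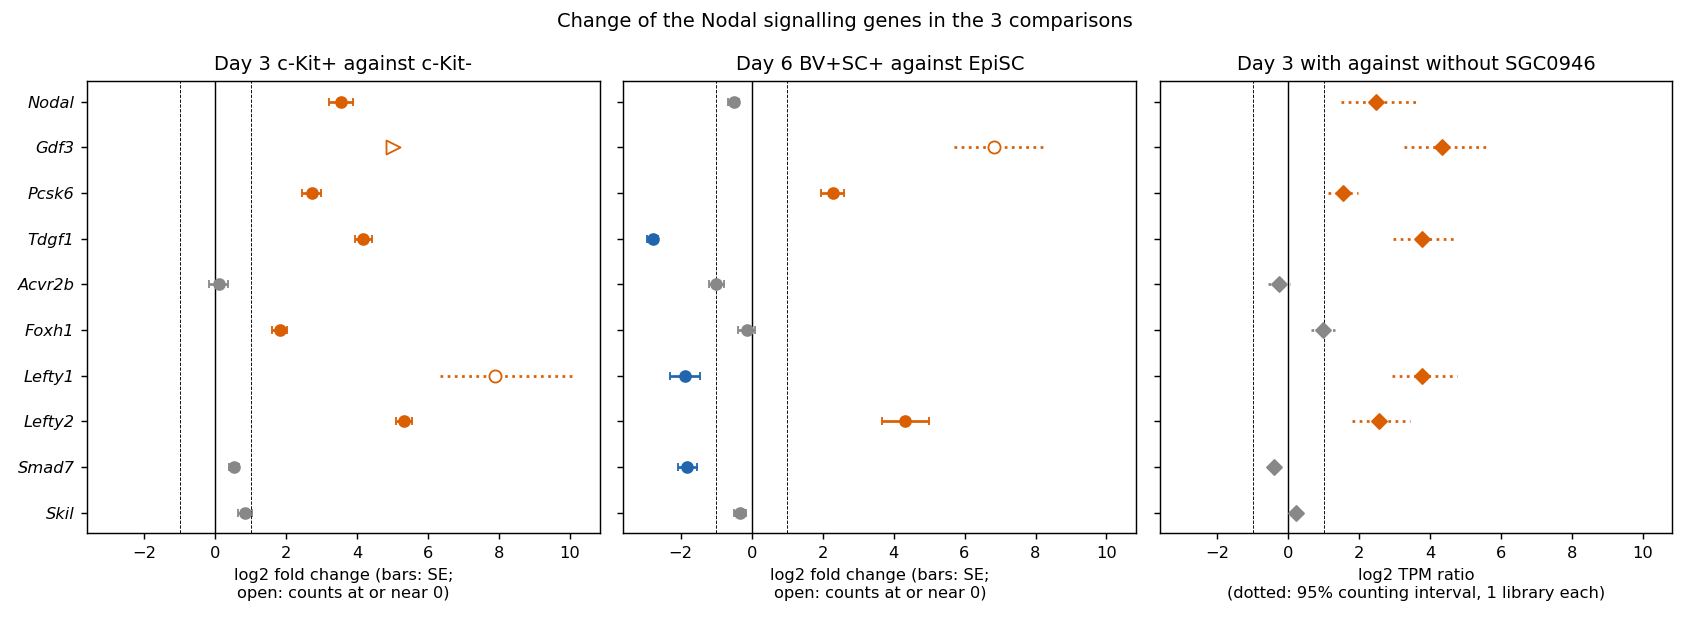
Log2 change of each gene (vertical axis: gene; horizontal axis: log2 scale) in Day 3 c-Kit+ against c-Kit- cells, in Day 6 BV+SC+ cells against EpiSCs, and in Day 3 cells with against without SGC0946. Bars are SE in the first 2 panels, dotted lines are 95% counting intervals, the open triangle is a lower bound, open circles are ratios of pooled counts, orange marks called or past 2-fold higher, blue called lower and grey neither. *Tdgf1* and *Lefty1* lie to the right of 0 in the outer panels and to the left in the middle one.

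Day 6 BV+SC+ cells were compared with EpiSCs to ask how the genes stand in the germ cell-like cells relative to the cells BiPNT starts from. Here the genes called went in both directions. *Gdf3*, *Pcsk6* and *Lefty2* rose, *Tdgf1*, *Lefty1* and *Smad7* fell, and *Nodal*, *Acvr2b*, *Foxh1* and *Skil* were not called. These 3 higher and 3 lower genes stand beside 16.8% called higher and 17.2% called lower of the 11792 genes tested. The median log2 fold change of the 10 genes was -0.41, beside 0.05 over all genes. At any fold, 3 passed the adjusted p as higher and 5 as lower, beside 29.6% and 26.5% of all genes, so the number higher is close to that background. EpiSCs were maintained with Activin A, which the protocol text does not list for the BV+SC+ cells, so medium and cell state cannot be told apart.

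The ligands changed differently. *Nodal* was at 76.0, 60.5 and 64.4 TPM in the EpiSC libraries and at 46.6 and 43.5 TPM in the BV+SC+ libraries. All BV+SC+ values lay below all EpiSC values, as they did for 36.3% of all genes tested, and the difference was less than 2-fold (log2 fold change -0.50 ± 0.15, SE, n = 2 and 3, edgeR adjusted p = 0.0240). *Gdf3* was at 0.91, 0.32 and 0.77 TPM in EpiSCs, or 3, 1 and 2 expected counts. In BV+SC+ cells it was at 88.3 and 56.4 TPM, from 1485 and 1140 expected counts. The ratio of pooled counts was 113, with a 95% counting interval from 51.7 to 308 (edgeR adjusted p = 9.75e-06). *Gdf3* was thus above *Nodal* in both BV+SC+ libraries and below it in all 3 EpiSC libraries.

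*Pcsk6* was at 5.43, 6.03 and 8.42 TPM in EpiSCs and at 45.2 and 22.3 TPM in BV+SC+ cells (log2 fold change 2.29 ± 0.32, SE, n = 2 and 3, edgeR adjusted p = 0.000676). The groups did not overlap, as for 34.0% of all genes in this direction, although the 2 BV+SC+ libraries themselves differed. *Tdgf1* was at 694, 674 and 666 TPM in EpiSCs, the highest level of any of the 10 genes in any group. In BV+SC+ cells it was at 78.3 and 107 TPM, and the log2 fold change was -2.79 ± 0.16 (SE, n = 2 and 3, edgeR adjusted p = 1.25e-05), a 6.92-fold lower level. *Acvr2b* was at 41.9, 42.3 and 37.9 TPM in EpiSCs and at 16.7 and 22.2 TPM in BV+SC+ cells (log2 fold change -0.99 ± 0.21, SE, n = 2 and 3, edgeR adjusted p = 0.00525). It lay just inside 2-fold, and was past 2-fold without EpiSC replicate 3 (log2 fold change -1.05) or without BV+SC+ replicate 2 (-1.24), when 4 genes were called lower.

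*Foxh1* was at 111, 123 and 138 TPM in EpiSCs and at 139 and 76.9 TPM in BV+SC+ cells. The groups overlapped and the difference was within its error (log2 fold change -0.14 ± 0.23, SE, n = 2 and 3, edgeR adjusted p = 0.639). Without BV+SC+ replicate 2 its sign turned, to a log2 fold change of 0.21.

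The *Lefty* genes moved in opposite directions. *Lefty1* was at 517, 408 and 589 TPM in EpiSCs and at 209 and 69.5 TPM in BV+SC+ cells (log2 fold change -1.87 ± 0.42, SE, n = 2 and 3, edgeR adjusted p = 0.00668). *Lefty2* was at 10.0, 4.55 and 7.54 TPM in EpiSCs and at 267 and 53.6 TPM in BV+SC+ cells (log2 fold change 4.34 ± 0.66, SE, n = 2 and 3, edgeR adjusted p = 0.00100). Neither gene overlapped between the groups, and for both the 2iJi library of BV+SC+ cells was well above the GK15 library. Without the 2iJi library the log2 fold change was -2.90 for *Lefty1* and 2.79 for *Lefty2*, and without the GK15 library -1.27 and 5.06, so the size of both changes depended on which library was used. The share of *Lefty1* in the summed TPM of both genes was 98.1%, 98.9% and 98.7% in the EpiSC libraries and 43.8% and 56.5% in the BV+SC+ libraries. The mean share was lower by 48.4 percentage points in BV+SC+ cells. An exact permutation test, whose two-sided p is 2 times the smaller one-sided p, gave p = 0.20. That is the smallest p this test can give for 2 against 3 libraries, so it cannot decide whether the shares differ. The share of *Lefty1* was 65.3% and 65.4% in c-Kit+ cells and 71.3% with SGC0946. In c-Kit- cells and without SGC0946 the summed level was only 3.49 to 6.56 TPM, and a share there rests on few counts.

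**Figure D3:**
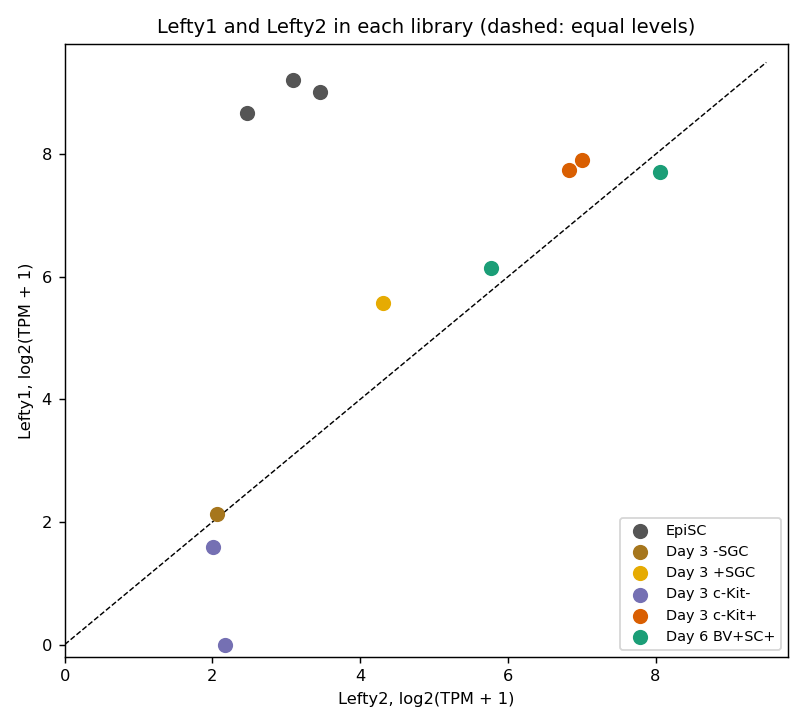
*Lefty1* (vertical axis) against *Lefty2* (horizontal axis), both as log2(TPM + 1), 1 point per library and coloured by group, with a dashed line at equal levels. The 3 EpiSC libraries lie far above the line at a *Lefty1* to *Lefty2* ratio of 51.6 to 89.7, and the 2 BV+SC+ libraries lie near it, with *Lefty1* at 43.8% and 56.5% of the summed level.

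Of the intracellular inhibitors, *Smad7* was at 134, 65.6 and 69.5 TPM in EpiSCs and at 26.0 and 26.8 TPM in BV+SC+ cells (log2 fold change -1.82 ± 0.26, SE, n = 2 and 3, edgeR adjusted p = 0.000788). The first EpiSC library was high, and every EpiSC library lay above both BV+SC+ libraries. *Skil* was at 70.8, 56.7 and 49.2 TPM in EpiSCs and at 36.0 and 48.2 TPM in BV+SC+ cells, which was not past the threshold (log2 fold change -0.33 ± 0.17, SE, n = 2 and 3, edgeR adjusted p = 0.129).

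Other cell states moved with this comparison too. The summed TPM of 4 primed epiblast genes was from 1007 to 1082 in EpiSCs and 22.7 and 95.03 in BV+SC+ cells. Most of the EpiSC sum came from *Dnmt3b*. *Otx2* was not called, at 83.8 to 117 TPM in EpiSCs and at 4.29 and 47.5 TPM in BV+SC+ cells (edgeR adjusted p = 0.110). The summed TPM of 7 trophoblast genes was from 21.1 to 32.9 in EpiSCs and 123 and 41.2 in BV+SC+ cells, mostly from the keratin genes *Krt8* and *Krt18*. Of 5 fibroblast genes, *Thy1* was from 18.8 to 28.3 TPM in EpiSCs and at 0.38 and 0.19 TPM in BV+SC+ cells, while *Col1a1* was from 0.26 to 3.88 TPM in EpiSCs and at 0.95 and 1.80 TPM in BV+SC+ cells. Their part in the changes of the Nodal genes was not tested. With the BV+SC+ counts thinned to the lowest EpiSC depth, 3 genes were again called higher and 3 lower.

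The 2 Day 3 libraries with and without SGC0946 address whether DOT1L inhibition goes along with a different level of these genes. There is 1 library per condition, so the differences have no replicate check and the intervals cover counting error only. *Nodal*, *Gdf3*, *Pcsk6*, *Tdgf1*, *Lefty1* and *Lefty2* were past 2-fold higher with SGC0946 on the log2(TPM + 1) scale, which is 6 of the 10 genes, and 0 were past 2-fold lower. Of all 14038 genes above 1 TPM in either library, 6.33% were past 2-fold higher and 3.45% past 2-fold lower. The median log2 ratio of the 10 genes was 1.72, beside 0.01 over all genes.

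*Gdf3* had the largest ratio, at 29.5 TPM with and 1.46 TPM without SGC0946, a ratio of 20.2 (95% counting interval 9.55 to 51.0) on 150 and 7 expected counts. *Nodal* was at 11.8 TPM with and 2.12 TPM without, a ratio of 5.55 (95% counting interval 2.82 to 12.2). *Pcsk6* was at 17.8 TPM with and 6.11 TPM without, a ratio of 2.91 (95% counting interval 2.17 to 3.94). Both ligands and the convertase were thus higher in the library with SGC0946, the ligands from a level near 2 TPM or less.

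*Tdgf1* was at 41.2 TPM with and 3.03 TPM without SGC0946, a ratio of 13.6 (95% counting interval 7.77 to 26.0). *Lefty1* was at 46.6 TPM with and 3.40 TPM without, a ratio of 13.7 (95% counting interval 7.63 to 27.1). *Lefty2* was at 18.8 TPM with and 3.16 TPM without, a ratio of 5.94 (95% counting interval 3.50 to 10.8). *Foxh1* lay just inside the threshold at 77.9 TPM with and 39.7 TPM without, a ratio of 1.96 whose 95% counting interval, 1.56 to 2.49, includes 2.

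The receptor and the intracellular inhibitors stayed within 2-fold. *Acvr2b* was at 39.8 TPM with and 47.3 TPM without SGC0946 (ratio 0.84, 95% counting interval 0.68 to 1.05), *Smad7* at 47.2 TPM with and 62.3 TPM without (ratio 0.76, 95% counting interval 0.67 to 0.86), and *Skil* at 51.1 TPM with and 43.6 TPM without (ratio 1.17, 95% counting interval 1.05 to 1.31). The direction of *Skil* depended on the scale, with a log2 ratio of 0.22 in TPM and -0.045 in CPM. Markers moved here as well. The summed TPM of the 3 pluripotency genes was 715 with and 132 without SGC0946, that of the 7 trophoblast genes 1113 with and 1402 without, and that of the 5 fibroblast genes 286 with and 278 without. That of the 5 germ cell genes was 200.4 with and 69.3 without, and that of the 5 primitive endoderm genes 15.6 with and 30.4 without, where *Gata6* was at 6.30 TPM with and 17.8 TPM without. Their part in these ratios was not tested.

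All 6 genes past 2-fold here were among the 7 called higher in c-Kit+ cells, in libraries that the comparisons do not share. For all genes measured in both, 144 of the 1036 called higher in c-Kit+ cells, or 13.9%, were past 2-fold higher with SGC0946, and these were 49.0% of the 294 genes past 2-fold higher. In BV+SC+ cells against EpiSCs, 30.0% of the 1000 genes called higher in c-Kit+ cells and tested there were called higher and 16.9% lower. Of the 7 Nodal genes, *Gdf3*, *Pcsk6* and *Lefty2* were in the first share, *Tdgf1* and *Lefty1* in the second and *Nodal* and *Foxh1* in neither.

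Set side by side without a test, since the experiments were made apart, the order of the groups differed between genes. *Nodal* was highest in EpiSCs (67.0 ± 8.07 TPM, SD, n = 3), followed by BV+SC+ cells (45.1 ± 2.21, SD, n = 2) and c-Kit+ cells (41.5 ± 6.48, SD, n = 2), whose values overlapped. *Tdgf1* was highest in EpiSCs (678 ± 14.5 TPM, SD, n = 3), with c-Kit+ cells (194 ± 4.17, SD, n = 2) next and then BV+SC+ cells (92.8 ± 20.5, SD, n = 2), with no overlap. *Gdf3* ran the other way, from EpiSCs (0.67 ± 0.31 TPM, SD, n = 3) to c-Kit+ cells (45.4 ± 9.19, SD, n = 2) and BV+SC+ cells (72.4 ± 22.5, SD, n = 2). *Foxh1* overlapped among c-Kit+ cells, EpiSCs and BV+SC+ cells, at means of 130, 124 and 108 TPM. *Acvr2b* spanned the narrowest range of means relative to its level apart from *Skil*, from 19.4 TPM in BV+SC+ cells to 47.3 TPM in the library without SGC0946, and *Skil* ranged from 25.8 TPM in c-Kit- cells to 58.9 TPM in EpiSCs.

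A further list of 32 genes of Nodal and Activin signalling, which holds other ligands, receptors, Smads, inhibitors and targets, was read from the same fits. In c-Kit+ against c-Kit- cells 20 of them were tested, of which 4 were called higher and 4 lower, at a median log2 fold change of 0.16, beside 9.98% and 12.9% of all genes called and their median of 0.03. The inhibitor gene *Ldlrad4*, whose product binds Smad2 and Smad3, was higher by 3.88 ± 0.41 on the log2 scale, with 25.4 and 22.0 TPM in c-Kit+ cells and 1.28 and 2.16 TPM in c-Kit- cells (SE, n = 2 per group, edgeR adjusted p = 8.69e-05). The target *Eomes*, a T-box factor, was higher by 3.46 ± 0.35 (SE, n = 2 per group, edgeR adjusted p = 6.60e-05). *Trim33*, a Smad partner, was higher by 1.03 ± 0.26, and *Fst*, the gene of the Activin-binding follistatin, by 1.66 ± 0.59 (SE, n = 2 per group, edgeR adjusted p = 0.0106 and 0.0450). Both calls were lost when a library was left out: *Fst* had 11 counts in the first and 29 in the second c-Kit+ library, with a log2 fold change of 0.83 without the second and 1.35 without the second c-Kit- library, and *Trim33* was at 0.60 without the first c-Kit- library and 0.92 without the second c-Kit+ library. With DESeq2 the call of *Fst* was lost too (adjusted p = 0.170), and with an offset for effective length both calls were lost.

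Besides *Furin*, the genes called lower in c-Kit+ cells were *Sox17*, *Smad3* and *Pmepa1*. *Sox17*, which is also one of the primitive endoderm markers above, had a log2 fold change of -3.02 ± 0.66, with 6 and 1 counts in c-Kit+ cells and 22 and 39 in c-Kit- cells (SE, n = 2 per group, edgeR adjusted p = 0.00531), and it was -4.77 without the first c-Kit+ library and -2.25 without the second. The signal transducer *Smad3* had -1.12 ± 0.16 and *Pmepa1*, a feedback inhibitor that binds the receptor Smads, -1.59 ± 0.34 (SE, n = 2 per group, edgeR adjusted p = 0.000541 and 0.00479). *Smad2* (-0.62 ± 0.17, edgeR adjusted p = 0.0145) and *Smad4* (edgeR adjusted p = 0.997) were not called. The call of *Smad3* was lost without the first c-Kit- library, at -0.97, and with an offset for effective length, at -0.92.

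In BV+SC+ cells against EpiSCs 19 of the 32 were tested, of which 0 were called higher and 1 lower, at a median log2 fold change of -0.44, beside 16.8% and 17.2% of all genes called and their median of 0.05. By an unadjusted p under 0.05 with the same fold the number called higher was also 0, as it was with DESeq2, while 1 passed the adjusted p at any fold. *Pmepa1* fell, from 58.0, 51.9 and 71.5 TPM in EpiSCs to 3.34 and 3.54 TPM in BV+SC+ cells (log2 fold change -4.00 ± 0.34, SE, n = 2 and 3, edgeR adjusted p = 6.58e-05). Without BV+SC+ replicate 1 it was at -4.68. In that fit 4 of the 32 were called lower and 1 higher, and without EpiSC replicate 1, 2 or 3 the number called higher was 1, 1 and 2. *Pmepa1* was thus lower in the sorted c-Kit+ cells and in the BV+SC+ cells alike, each against its own reference.

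With against without SGC0946, 22 of the 32 genes were measured, and 2 were past 2-fold higher and 0 lower, at a median log2 ratio of -0.14. Of all genes measured, 6.33% were past 2-fold higher and 3.45% lower, at a median of 0.01, so the number past 2-fold in this list is close to that background. The genes past 2-fold were *Ldlrad4*, at 10.2 TPM with and 1.40 TPM without (ratio 7.29, 95% counting interval 3.48 to 17.6), and *Eomes*, at 2.24 TPM with and 0.27 TPM without, on 20 and 2 counts (ratio 8.30, 95% counting interval 2.02 to 73.2). Both were also called higher in c-Kit+ than in c-Kit- cells. The mesendoderm genes *Gsc*, *Mixl1*, *Foxa2* and *Lhx1*, known targets of high Nodal signalling in the primitive streak, were at most at 6.48 TPM in any of the 11 libraries. The other targets of this list reached higher levels, *Eomes* up to 19.6 TPM in c-Kit+ cells and *Sox17* up to 26.8 TPM in c-Kit- cells.

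**Figure D4:**
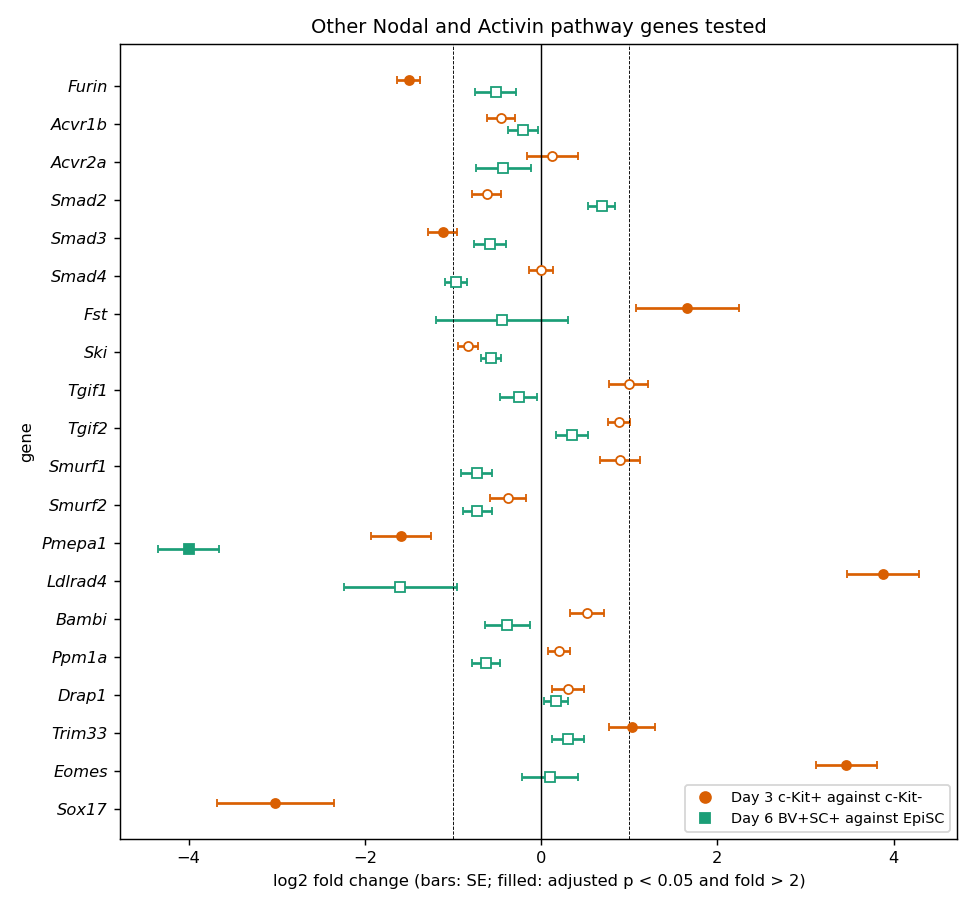
Log2 fold change (horizontal axis, bars are SE) of the other pathway genes tested (vertical axis) in Day 3 c-Kit+ against c-Kit- cells (orange circles) and in Day 6 BV+SC+ cells against EpiSCs (green squares). Filled symbols are genes called, which were 8 of 20 in the first comparison and 1 of 19 in the second.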

How the data were processed

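The authors mapped reads to annotated transcripts (Bowtie2) and obtained expected counts for each gene from RSEM (version 1.3.1 in the submitters' notes for the EpiSC, BV+SC+ and SGC0946 libraries), and these expected counts were deposited without normalization between libraries. The deposited TPM come from the same RSEM output, and the authors' effective lengths in it were used for a length offset. The annotation release of the methods was not used here. Symbols and positions were taken from GENCODE M21 for GRCm38. The 25 other samples of the series (scRNA-seq, ATAC-seq and ChIP-seq) were not analysed here. The 10 genes, the further list of 32 genes and the marker lists were chosen with earlier results of these data known. All 10 genes were given, and of the 32 those called in a comparison. Another item is not reported here.

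Rounded expected counts were tested with edgeR 4.0.16 in R 4.3.3 (filterByExpr, TMM factors, quasi-likelihood test), in a model of the 2 groups compared. Genes were called at a Benjamini-Hochberg adjusted p under 0.05 over all genes tested with a fold change over 2. The methods of the study give P under 0.05, here taken as adjusted. For SGC0946, log2 ratios of TPM + 1 were computed where either library exceeded 1 TPM, a scale that understates changes of low genes, and 95% intervals are exact (Clopper-Pearson) intervals for 2 counts. In a group without a count the limit was 3 counts per library. Sequence shared between transcripts was found with BLAST+ 2.17.0 (at least 98% identity over 75 bases). Nothing states that replicates are separate cultures, so p-values may measure technical spread only. No pair of replicates was a library counted again. The test was checked on counts simulated with the same dispersion for every gene and library, which does not show how it holds where replicates differ more. Alternatives were DESeq2 1.42.0, RLE factors, other filters, thresholds and offsets, thinned counts, a replicate block and each replicate left out.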

Additional observations from a re-analysis of the deposited data

How the results depend on the processing

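Of the 10 Nodal genes, no call was lost in any alternative in which the gene was tested, and none turned its direction while called. With at least 10 counts in every library, 3 genes rather than 7 were called higher in c-Kit+ cells because 4 were no longer tested, 1 of the further 32 genes was called higher in c-Kit+ cells, and the numbers over all genes called higher were 706 in c-Kit+ cells and 1164 in BV+SC+ cells. Without the fold threshold, 5 of the 10 genes were called lower in BV+SC+ cells, 7 of the further genes higher and 7 lower in c-Kit+ cells, and 1 higher and 7 lower in BV+SC+ cells, while over all genes the numbers were 2228 and 2346 in c-Kit+ cells and 3486 and 3122 in BV+SC+ cells. Without a filter on low counts, 2 further genes were called higher and 2 lower in BV+SC+ cells, and at an unadjusted p under 0.05 with the fold threshold 2 were called lower. For SGC0946, TPM over 1 in both libraries left 1 further gene, and 374 genes higher and 181 lower over all genes, and CPM in place of TPM gave 558 higher and 163 lower. On the CPM scale *Skil* turned from 0.22 to -0.045 on the log2 scale. The cause of the CPM changes was not tested. With each replicate left out in turn, which leaves the sorted groups with 1 library on a side that is assumed to vary like the others, the further genes called higher in c-Kit+ cells numbered 2 to 5, and those in BV+SC+ cells 0 to 2 higher and 1 to 4 lower. The log2 fold change ranged from -0.34 to 0.39 for *Acvr2b* and from -0.09 to 0.03 for *Smad4* in c-Kit+ cells, and from -0.59 to 0.21 for *Foxh1* in BV+SC+ cells. The labels do not say whether same-numbered libraries belong together. Across genes their deviations correlated at 0.11 in the sorted cells and at -0.03 and 0.004 in BV+SC+ cells and EpiSCs, which cannot settle it. With the replicate block the numbers of Nodal genes called were 7 higher in c-Kit+ cells, and 3 higher and 4 lower in BV+SC+ cells, with *Acvr2b* at -1.06, and the block changed no other call of a Nodal gene. Depth limits the low values most: *Gdf3* and *Lefty1* rested on at most 3 counts per library in c-Kit- cells, and *Gdf3* likewise in EpiSCs. In c-Kit- cells *Nodal* rested on 9 and 6 counts and *Lefty2* on 7 and 8.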
